A study of Mus musculus with 15 samples.

Results

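The contacts of promoters in Reactivated hippocampal neuronal nuclei were compared with those in Late nuclei, for every promoter of a promoter-capture Hi-C table. The 8 libraries labelled Reactivated replicates 1 to 4 and Late replicates 1 to 4 were taken out of 15. The full table listed 36353 pairs of a promoter and a HindIII fragment, called listings here, over 4429 promoters and 33334 fragments. Of these, 24041 listings, 4276 promoters and 21478 fragments had a score in at least 1 of the 8 libraries. A score is the authors' interaction score, a whole number of 2 or more, and a fragment with no score was entered as 0.

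All mice of both groups carried ArcCreERT2 together with R26R-STOP-floxed-eYFP (genotype label +/+). In this line a tamoxifen-dependent Cre under Arc control switches on a yellow fluorescent protein permanently, so cells with an active Arc gene while the drug is present stay marked. Per the labels, every mouse had 1 dose of 4-hydroxytamoxifen 1 h before contextual fear conditioning, and tissue of 10 to 12 mice was pooled to obtain 10000 nuclei per condition, sorted with antibodies to NeuN and GFP. The protocol describes mice kept in the dark for 48 h and killed 5 days after conditioning, either directly or after a renewed encounter with the tone and context, and the Reactivated and Late titles were not tied by the labels to these arms. The treatment label reads no recall for both groups and gives a different collection day for each library, later by a day from one to the next and not the day of the protocol, so what separates Reactivated from Late is known only from the titles and the group names are those of the titles. No age is given. Pooled animals mean that the spread between libraries is not the spread between mice, and nothing in the labels states that libraries of a group came from separate pools.

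Promoter-capture Hi-C joins DNA ends that lie close together in fixed nuclei and enriches the joined pieces that contain a chosen promoter, so that each promoter receives a list of fragments it met. Enhancers act on genes through such contacts, which are shaped by cohesin, CTCF and the transcription machinery. Recall of a memory reactivates part of the neurons that were active at encoding, and in such neurons immediate early genes such as Arc, Fos and Npas4 are switched on again. The comparison asks how the contact lists differ between the memory stages that the titles call Reactivated and Late.

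The Reactivated libraries fell into 2 kinds. Replicates 1 and 2 listed 32 and 335 fragments, while replicates 3 and 4 listed 10035 and 10514. The Late libraries listed 2995, 3256, 7165 and 7224 fragments in replicates 1 to 4. Every Late library thus lay between the sparse and the full Reactivated libraries, and the groups overlapped fully.

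**Figure D1:**
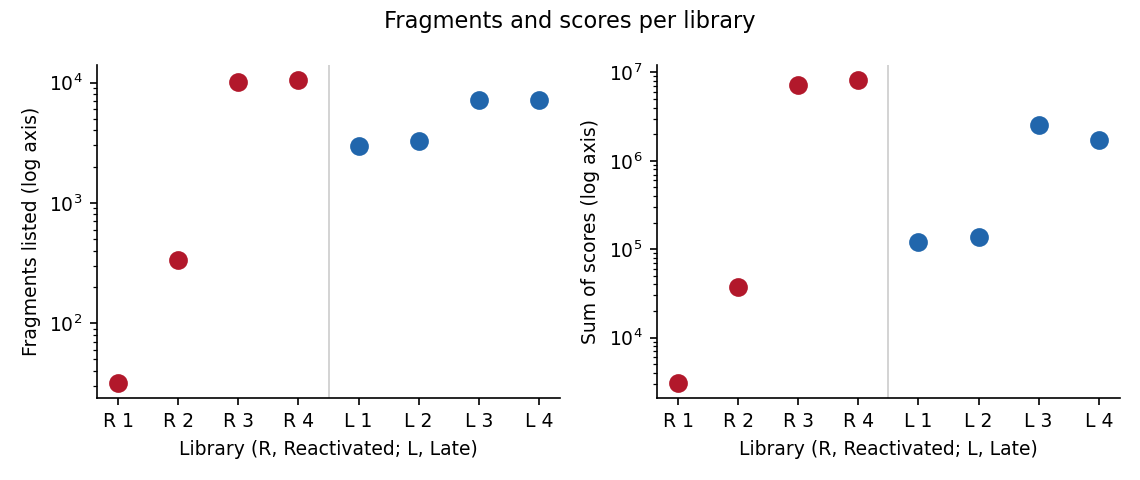
Fragments listed (left) and sum of scores (right) in each of the 4 Reactivated and 4 Late libraries, on log axes; each point is 1 library. Reactivated 1 and 2 lie below all Late libraries and Reactivated 3 and 4 above them, with 32 and 335 against 10035 and 10514 fragments.

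The sums of scores were 3097, 36997, 7144270 and 8218430 in Reactivated replicates 1 to 4 and 120145, 138564, 2543798 and 1722051 in Late replicates 1 to 4. Fragments per library averaged 5229 ± 5831 in Reactivated and 5160 ± 2352 in Late (SD, n = 4 each), and the two-sided exact permutation test gave p = 0.943. The median score of a library averaged 174.5 ± 155.1 in Reactivated and 74.3 ± 68.9 in Late (SD, n = 4 each, exact permutation p 0.343). With 4 against 4 libraries the smallest p that the 70 assignments allow is 0.0286, and over 4 such quantities the adjusted p ran from 0.857 to 0.943. The difference in fragments changed sign when Reactivated replicate 3 or 4, or Late replicate 1 or 2, was left out. The read depth of the libraries is unknown, since the files give scores only.

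Libraries of a group went together in pairs. Reactivated replicates 3 and 4 shared 9599 fragments, 87.7% of those listed by either, and Late replicates 3 and 4 shared 6509, or 82.6%. Late replicates 1 and 2 shared 1446 fragments, or 30.1% of either, and all 32 fragments of Reactivated replicate 1 were also in replicate 2. Across these pairs sharing was low within a group as well as between groups. Reactivated replicate 1 shared 3 fragments with replicate 3, Late replicate 1 shared 257 with Late replicate 3, and Reactivated replicate 3 shared 1399 with Late replicate 3. Over shared fragments, Pearson's r of log2 scores was 0.98 between Reactivated 3 and 4 and 0.97 between Late 3 and 4, but 0.19 between Reactivated 3 and Late 3 and 0.31 between Late 1 and Late 3, as a description across fragments of the same capture. Replicates 3 and 4 of each group, called the deep pairs below, were therefore also read on their own after scaling all 4 to the same total.

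The base sequences just before the start of 5 genes whose listings are described below are shown as examples of promoters that passed the test, changed fragments between the deep pairs or formed a pair with equal scores. They are the 250 bases before the gene's start from RefSeq on GRCm38.p6, which is not the build of the fragments, so no fragment can be placed on them. Capitals mark matches, on either strand, to 4 motifs: the HindIII site AAGCTT that cuts the fragments, the cAMP response element TGACGTCA, the AP-1 site TGANTCA and the core of the CTCF consensus, and none of these motifs contains another. A RefSeq window was at hand for 3262 of the 4429 promoters. Vangl2 (chr1:172027296-172027545, minus strand) and Egfl6 (chrX:166585717-166585966, minus strand) passed the promoter test, Klhl31 (chr9:77636482-77636731, plus strand) held the highest ratio between the deep pairs, and Magel2 (chr7:62376729-62376978, plus strand) and Ndn (chr7:62348027-62348276, plus strand) are neighbours with equal scores in Reactivated. Tgm2 and Otof, described below, are named only.
Vangl2: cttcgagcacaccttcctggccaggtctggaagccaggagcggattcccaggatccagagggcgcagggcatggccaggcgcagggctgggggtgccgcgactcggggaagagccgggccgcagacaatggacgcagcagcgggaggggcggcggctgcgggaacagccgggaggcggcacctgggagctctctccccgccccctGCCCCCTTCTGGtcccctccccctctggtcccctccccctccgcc
Egfl6: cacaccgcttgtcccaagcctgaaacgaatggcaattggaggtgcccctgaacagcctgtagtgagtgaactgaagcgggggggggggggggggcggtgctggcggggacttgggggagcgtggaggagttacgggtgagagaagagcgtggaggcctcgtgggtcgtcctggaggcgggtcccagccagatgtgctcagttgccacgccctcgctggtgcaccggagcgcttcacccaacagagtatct
Klhl31: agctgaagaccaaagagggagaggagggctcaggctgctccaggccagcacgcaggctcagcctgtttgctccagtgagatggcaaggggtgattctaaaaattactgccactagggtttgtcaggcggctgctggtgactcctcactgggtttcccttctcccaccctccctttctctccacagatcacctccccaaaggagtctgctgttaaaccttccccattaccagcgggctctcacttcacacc
Magel2: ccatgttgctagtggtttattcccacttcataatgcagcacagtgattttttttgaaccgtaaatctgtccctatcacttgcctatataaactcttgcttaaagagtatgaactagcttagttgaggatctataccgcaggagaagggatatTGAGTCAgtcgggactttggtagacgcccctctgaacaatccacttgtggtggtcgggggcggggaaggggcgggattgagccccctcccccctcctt
Ndn: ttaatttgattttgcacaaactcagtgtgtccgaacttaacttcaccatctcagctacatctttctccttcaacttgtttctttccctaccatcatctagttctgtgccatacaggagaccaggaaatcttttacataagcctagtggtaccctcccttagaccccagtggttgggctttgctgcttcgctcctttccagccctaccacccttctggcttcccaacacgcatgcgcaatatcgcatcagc
Vangl2 held 1 CTCF core match and Magel2 held 1 AP-1 match, and the other 3 windows held none of the 4 motifs. Over all 32851 RefSeq windows of this length, 6.22% held the HindIII site, 1.55% the cAMP response element, 6.75% the AP-1 site and 2.07% the CTCF core. The window of Vangl2 is 73.6% G and C with 18 CpG dinucleotides, against 47.2% and 5 in that of Ndn. A match is a run of letters and not evidence of binding.

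Across single listings no difference passed. In limma on the asinh of the scores with all 15 libraries in the fit, 0 of 36353 listings (0.0%) had a Benjamini-Hochberg adjusted p under 0.05, while an unadjusted p under 0.05 was reached by 9507 (26.2%), with 5876 higher and 3631 lower in Reactivated. Without Reactivated replicates 1 and 2 the same fit called 9121 listings, 9020 higher and 101 lower in Reactivated. Its scores were not scaled, and the Reactivated libraries left were the near-identical replicates 3 and 4. Their sums of scores were 7144270 and 8218430, against 120145 to 2543798 in Late. The part of these totals in the direction of the calls was not tested. With the library pairs entered as single means, the fit called 0, with 4 listings at an unadjusted p under 0.05. A pair here shared at least 40% of the smaller library's fragments. Reactivated 1 and 2 and Late 1 and 2 were thus averaged as well as the deep pairs. Leaving out Reactivated replicate 1 alone gave 4895 calls, and leaving out replicate 2 alone gave 4929. Filtering to listings scored in at least 2 of the 8 libraries gave 8971 calls, 5248 higher and 3723 lower. This filter admits the 8405 listings in both deep Reactivated and no Late library. It also admits the 5582 in both deep Late and no Reactivated library. They enter through the group where they are high, so these calls are no support for a difference.

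At the level of promoters, 3 of 4429 passed (0.0677%), all 3 lower in Reactivated. The value tested was the mean asinh score of a promoter over its listed fragments. Tgm2, which encodes transglutaminase 2, an enzyme that cross-links proteins, had a mean asinh score of 0, 0, 0 and 0 in Reactivated replicates 1 to 4 and of 2.33, 2.44, 2.50 and 2.42 in Late replicates 1 to 4. No Reactivated library listed a fragment with it, and all Late libraries did, so the groups did not overlap. The difference was -2.42 (SE 0.41, limma adjusted p 0.0224).

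Egfl6, which encodes a secreted protein with EGF-like repeats, had 0 in all 4 Reactivated libraries and 1.82, 1.67, 3.46 and 3.28 in the Late libraries (difference -2.56, SE 0.48, limma adjusted p 0.0339). Vangl2, a core membrane protein of planar cell polarity, also had 0 in all 4 Reactivated libraries, against 1.67, 1.76, 3.22 and 3.02 in Late (difference -2.42, SE 0.46, limma adjusted p 0.0339). In both genes Late replicates 3 and 4 lay above Late replicates 1 and 2.

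**Figure D2:**
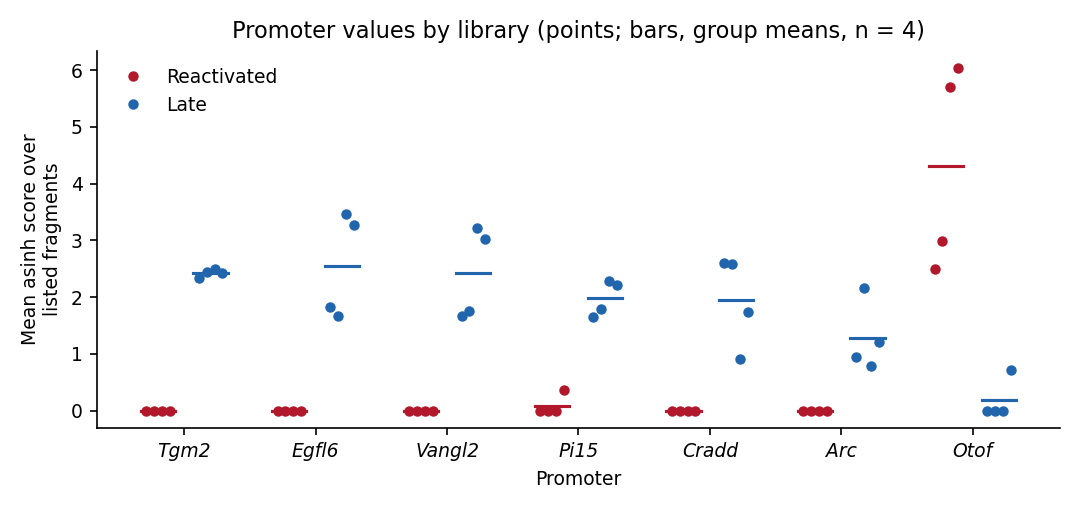
Mean asinh score of 7 promoters over their listed fragments in each library (points; bars are means of 4 libraries). Tgm2, Egfl6, Vangl2, Cradd and Arc are at 0 in all 4 Reactivated libraries, and Otof is above all Late libraries in all 4 Reactivated libraries.

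The Late scores of these 3 promoters came from different fragments in the 2 Late pairs. Vangl2 was listed with chr1:175311103-175322212 (mm9) at 14 and 17 in Late replicates 1 and 2 and with chr1:173881030-173890169 at 312 and 212 in Late replicates 3 and 4. Egfl6 was listed with chrX:15831566-15832739 at 19 and 14 in Late replicates 1 and 2 and with chrX:162647119-162652637 at 511 and 351 in replicates 3 and 4. Tgm2 was listed with 2 fragments in Late replicates 1 and 2, at 16 to 22, and with chr2:157522839-157525268 at 906 and 719 in replicates 3 and 4. No single fragment of the 3 promoters was scored in all 4 Late libraries. What the promoters share is that no fragment of theirs was scored in Reactivated. Their fragments were also at 0 in every Basal and Early library, so the 3 promoters were listed in Late alone. In the fit of all 15 libraries the other groups thus had no spread for these promoters.

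Otof, Pi15 and Cradd lay just outside the threshold. Otof, which encodes otoferlin, a calcium sensor for vesicle release known from inner hair cells, had mean asinh scores of 2.49, 2.99, 5.71 and 6.04 in Reactivated and 0, 0, 0 and 0.72 in Late (difference 4.13, SE 0.84, limma adjusted p 0.0569). Its fragment chr5:30939784-30945354 was scored 73, 199, 59 and 87 in Reactivated replicates 1 to 4 and in no Late library, and was the 1 listing of 36353 (0.00275%) whose Reactivated scores all lay above all Late scores. Pi15, a secreted peptidase inhibitor, had 0, 0, 0 and 0.36 in Reactivated against 1.65, 1.80, 2.29 and 2.22 in Late (limma adjusted p 0.0688). Cradd, an adaptor of the death-domain family, had 0 in Reactivated against 2.60, 2.59, 0.91 and 1.73 in Late (limma adjusted p 0.0971).

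The 3 calls were sensitive to the libraries in the fit. With the 8 libraries alone, or with pairs entered as means, 0 promoters passed, with 607 and 243 at an unadjusted p under 0.05. Without Reactivated replicates 1 and 2, 1940 passed, 1879 higher and 61 lower, on unscaled scores with the near-identical replicates 3 and 4 as the Reactivated group. With all libraries kept and their totals equalised, 12 passed, 1 higher and 11 lower. Without Reactivated replicate 1 or 2 alone, 155 and 147 passed. All 3 promoters lost the call without Reactivated replicate 3 or 4 (limma adjusted p 0.0943 to 0.139), and Egfl6 and Vangl2 also without Late replicate 3 or 4 (0.0734 to 0.0753). Without Late replicate 1 or 2, 10 and 9 promoters passed.

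Over all promoters, 119 (2.69%) had mean scores in Reactivated wholly below those in Late, and 3 (0.0677%) had them wholly above. For single listings the numbers were 127 (0.349%) below and 1 above. A value wholly above needs a score in each Reactivated library, and Reactivated replicates 1 and 2 listed only 32 and 335 fragments. The numbers above and below therefore had unlike room and cannot be read as a direction. A fragment of Anxa6, a calcium-dependent membrane-binding annexin, at chr11:54847279-54854732 was scored 311, 984, 0 and 0 in Reactivated and 4876, 5746, 4182 and 2763 in Late. A fragment shared by Tnks1bp1, Rtn4rl2, Smtnl1 and Ube2l6 at chr2:84717973-84722413 was scored 0, 0, 440 and 480 in Reactivated against 2217, 2574, 2635 and 1598 in Late.

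Arc, whose promoter marks the labelled cells and whose protein traffics AMPA receptors, was listed with 4 fragments, and none was scored in Reactivated. None was scored in a Basal or Early library either, so Arc was listed in Late alone. Its fragment chr15:74557103-74558248, of 1146 bp, was scored 22, 20, 12 and 15 in Late replicates 1 to 4 and 0 in all 4 Reactivated libraries. The 3 other Arc fragments were each scored in a single Late library, at 2 to 7. The mean asinh score of Arc differed by -1.28 (SE 0.39, limma adjusted p 0.278) and its number of called interactions, those scored 5 or more, was 0 in each Reactivated library and 1, 3, 1 and 1 in Late (limma adjusted p 0.0607). Neither passed the threshold. The lowest score in the table is 2, so a weaker contact of Arc was not detectable.

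The 6 largest differences in each direction among called fragments also failed the adjusted test, with limma adjusted p from 0.141 to 0.219. On the Late side, a fragment of Cacna2d2 (chr9:107291564-107293457), an auxiliary subunit of voltage-gated calcium channels, was scored 0 in all 4 Reactivated libraries and 1167, 2455, 810 and 914 in Late. A fragment of Setd3 (chr12:109424309-109430341), the actin histidine methyltransferase, was scored 0 in Reactivated and 350, 378, 1600 and 1152 in Late. These 2 had a score in each Late library and in no Reactivated library. A fragment of Hepacam (chr9:37421784-37423073), a cell adhesion protein of astrocytes, was likewise at 0 in Reactivated and at 116, 155, 716 and 530 in Late. Cldn12, a tight junction claudin, differed in that Reactivated replicate 2 scored its fragment (chr5:5506587-5510978) at 1000 and the other 3 Reactivated libraries at 0, against 4168, 5049, 3448 and 2597 in Late. A fragment of Map3k12 (chr15:102236303-102248932), a kinase of axonal stress signalling, was at 0 in Reactivated and at 35, 37, 3757 and 2595 in Late.

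On the Reactivated side the 6 were the Otof fragment above, 4 fragments scored in replicates 2, 3 and 4, and a fragment of Atp6v1g1 scored in replicates 3 and 4 alone. A fragment of Zfp949, a zinc finger protein, at chr9:88302215-88316225 was scored 0, 92, 1656 and 2004 in Reactivated and 0 in all Late libraries. A fragment of Ide (chr19:37383820-37392294), the insulin-degrading enzyme, was scored 0, 197, 1069 and 1165 in Reactivated and 0 in Late. Ly96, the co-receptor of Toll-like receptor 4, had 0, 47, 980 and 1215 in Reactivated and 0 in Late on chr1:17110850-17116318. In these 3 Reactivated replicate 1 shared the zero of the Late libraries. A fragment listed with Rbfox2, Mapk15 and Zfp251 (chr15:77589374-77592946), the first of which encodes a neuronal splicing factor, was scored 0, 172, 583 and 649 in Reactivated and 0 in Late.

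The sparse Reactivated libraries had little in common with the deep pair. Of the 32 fragments of Reactivated replicate 1, 3 were scored in replicate 3 or 4, 5 in any Late library and 26 in neither. Scores in replicate 2 were a median of 3.18 times those in replicate 1. Among the 26 were fragments of Gria4, an AMPA receptor subunit, at 110 and 295 in Reactivated replicates 1 and 2, of Grm7, a metabotropic glutamate receptor, at 102 and 300, and of Sstr4, a somatostatin receptor, at 297 and 948. All were at 0 in the other 6 libraries.

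Of the 335 fragments of Reactivated replicate 2, 49 (14.6%) were scored in Reactivated 3 or 4 and 67 (20.0%) in a Late library. Of its 388 listings, 139 were with a single promoter, Crebzf, a bZIP transcription factor. A fragment of Trim28, the corepressor of KRAB zinc finger proteins, at chr7:13612837-13615593 was the 1 fragment scored in all 8 libraries, at 451, 1369, 2799 and 3491 in Reactivated and 1326, 1724, 3110 and 2287 in Late. A fragment of Nfxl1, a zinc finger protein, at chr5:72951405-72951945 was scored 186, 186, 636 and 564 in Reactivated and 0, 0, 3907 and 2612 in Late. The difference of the Trim28 fragment changed sign with the scaling, being -0.25 on the asinh scale as deposited and 0.40 with the totals of all 15 libraries equalised. That scaling raised the scores of Reactivated replicates 1 and 2, whose sums of scores were 3097 and 36997, against 120145 or more in Late. The part of this in the change of sign was not tested. In the deep pairs alone with equalised totals the Trim28 fragment was lower in Reactivated, with a log2 ratio of -1.66.

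Taking an interaction as called once any library of the group scored it at 5 or above, Reactivated had 12289 and Late 13367, of which 2639 were common. That leaves 9650 in Reactivated and not in Late and 10728 in Late and not in Reactivated. Of the interactions called in both groups, 60.0% were also called in a Basal or Early library, against 34.5% of those in Reactivated alone and 36.2% of those in Late alone. The number of called interactions of a promoter passed the limma test in 0 of 4403 promoters (0.0%), and 634 (14.4%) reached an unadjusted p under 0.05. A call threshold of 2 gave 15 and dropping Reactivated replicates 1 and 2 gave 1238, 1186 higher and 52 lower. Scores were not scaled for these calls. Dropping a single library gave 193 and 191 without Reactivated replicates 1 and 2 in turn, and 27, 5, 37 and 40 without Late replicates 1 to 4 in turn.

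The largest gains in called interactions were in Crebzf, Spock2, Dpp10, Krtcap2 and Ranbp6. Crebzf had 5, 42, 8 and 9 called interactions in Reactivated and 12, 10, 8 and 11 in Late, so the gain lay in replicate 2 alone, and without it the difference was -2.92. Spock2, an extracellular matrix proteoglycan of brain, had 0, 0, 14 and 14 in Reactivated and 0, 1, 4 and 2 in Late (limma adjusted p 0.231). Dpp10, an auxiliary subunit of Kv4 potassium channels, had 0, 0, 12 and 12 in Reactivated and 0, 0, 2 and 2 in Late (limma adjusted p 0.265). In Spock2 and Dpp10 only Reactivated replicates 3 and 4 exceeded the Late libraries.

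The largest losses were in Cacna2d1, Rbfa, Arfgef1, Cldn12 and Nfil3. Cacna2d1, a calcium channel subunit and the target of gabapentin, had 0, 0, 15 and 15 called interactions in Reactivated against 6, 7, 20 and 19 in Late, and without Reactivated replicates 1 and 2 its difference was 2.00. Nfil3, a bZIP repressor that responds to neuronal activity signals, had 0 in all 4 Reactivated libraries and 5, 6, 4 and 2 in Late (limma adjusted p 0.0736). Cldn12 had 0, 1, 0 and 0 in Reactivated and 8, 4, 3 and 3 in Late (limma adjusted p 0.103). For Nfil3 and Cldn12 the groups did not overlap. Nfil3 was listed with chr13:52805791-52810960 in all 4 Late libraries, at 34, 43, 22 and 10, and with chr13:52756098-52757805 at 1136 and 838 in Late replicates 3 and 4 alone.

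Between the deep pairs most fragments differed. With library totals equalised, 1699 listings (1224 fragments, 1211 promoters) were scored in all 4 deep libraries, 8405 in both deep Reactivated and no Late library, and 5582 in both deep Late and no Reactivated library. Of fragments scored in either deep Reactivated library, 15.3% were scored in a deep Late library, and of those scored in a deep Late library, 21.3% in a deep Reactivated one. Listings in all 4 were also listed in a Basal or Early library in 67.1% of cases, against 35.9% of those in Reactivated alone and 46.3% of those in Late alone.

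Among the 1699 listings in all 4 libraries, 310 (18.2%) were more than 4-fold higher and 471 (27.7%) more than 4-fold lower in Reactivated. The median log2 ratio of Reactivated over Late was -0.41, with quartiles of -2.25 and 1.30. The SD of the log2 difference was 2.98 between the pairs, 0.55 between the 2 Reactivated libraries and 0.70 between the 2 Late libraries. The direction of the balance depended on the scaling. Unscaled scores put 693 listings higher and 206 lower with a median log2 ratio of 1.44, and scaling to the median of the shared listings put 367 higher and 385 lower. A limma fit of these 4 libraries alone is given only among the alternatives, since 2 near-identical libraries do not measure the spread of a condition.

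**Figure D3:**
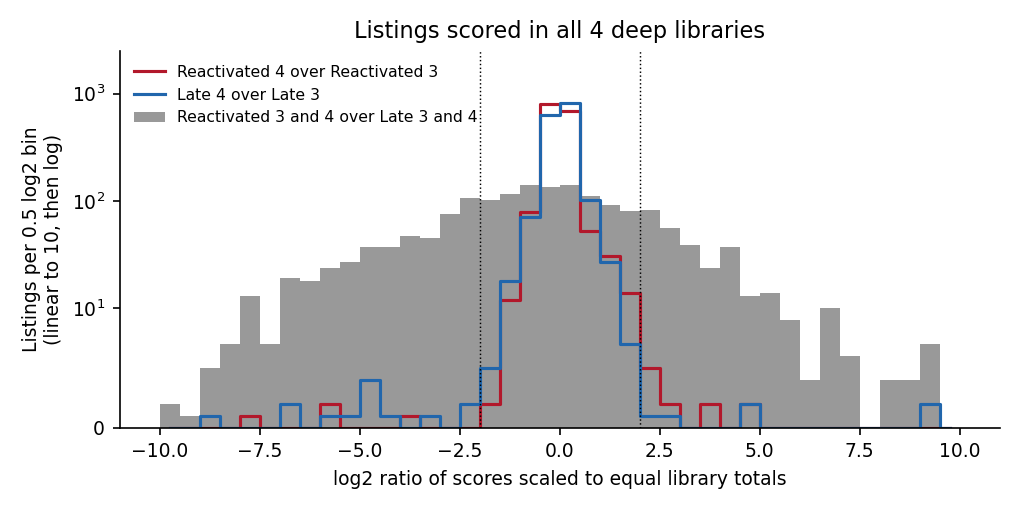
Listings per bin of the log2 ratio of scaled scores for the 1699 listings scored in all 4 deep libraries, between the groups (grey bars) and between the 2 libraries of each pair (lines); the vertical axis is linear to 10 and logarithmic above. Within 2-fold lie 31.1% of listings between the groups, 95.6% between Reactivated 4 and 3, and 95.5% between Late 4 and 3.

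Klhl31, a kelch-like protein, held the largest rise. Its fragment chr9:77458575-77471118 was scored 4637 and 5601 in Reactivated replicates 3 and 4 against 2 and 2 in Late replicates 3 and 4, a log2 ratio of 9.40. The next fragment, chr9:77471121-77472125, was scored 0 in Reactivated and 5127 and 3786 in Late. Another fragment, chr9:77472188-77473613, which starts shortly after it, was scored 3953 and 4683 in Reactivated and 0 in Late. The Late fragment lay between the Reactivated ones.

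Other rises past 4-fold were on fragments listed with Ahcyl2, Tspan33 and the proton pump subunit Atp6v1f (6145 and 6563 in Reactivated against 4 and 2 in Late) and with the cholecystokinin receptor Cckbr (8978 and 9517 in Reactivated against 3 and 5 in Late). The largest falls were on fragments of Dusp10, a phosphatase of stress-activated kinases, shared with D1Ertd622e (3 and 3 in Reactivated against 776 and 594 in Late, log2 ratio -9.71), of Bax, which promotes apoptosis (11 and 7 in Reactivated against 2037 and 1366 in Late), and of Appl2, an endosomal adaptor (13 and 11 in Reactivated against 1987 and 1381 in Late). A fragment shared by Rab3a, the synaptic vesicle GTPase, and Klhl26 had 3 and 3 in Reactivated and 399 and 275 in Late. In the Dusp10 and Rab3a fragments the Reactivated scores lay 1 unit above the lowest score in the table, and in the Bax and Appl2 fragments they lay between 7 and 13. For the rises of Klhl31, Ahcyl2 and Cckbr, the Late scores lay between 2 and 5, at or near that lowest score of 2. The size of all these ratios thus rests on scores near the floor.

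The strongest fragments of one pair were mostly absent from the other. Of the 100 highest fragments of each pair, 6 were common to the Reactivated and the Late pair, whereas 84 were common to Reactivated 3 and 4 and 85 to Late 3 and 4. The libraries of a deep pair are near-identical, so 84 and 85 do not measure the spread within a group. Over all fragments, Late 1 and Late 3 shared 8.6% of the smaller library, against 19.5% for Late 3 and Reactivated 3. Of the top 100 of the Reactivated pair, 58 were unlisted in all 4 Late libraries, and of the top 100 of the Late pair 63 were unlisted in all 4 Reactivated libraries. Scored at 0 in every Late library were fragments of Atp6v1g1, a subunit of the vesicular proton pump (10160 and 10572 in Reactivated 3 and 4), of the immediate early response gene Ier5 (8211 and 9587), and of Prnp, the prion protein, shared with Smox (7404 and 7720). Fragments of Rab33b, a Golgi GTPase (6832 and 7374), and of Mios, a part of the amino acid sensing complex upstream of mTORC1 (6652 and 7257), did the same. In the other direction, scored at 0 in every Reactivated library, were fragments of Mapk10, the brain form of JNK (3848 and 2563 in Late 3 and 4), of Calcoco1 and Map3k12 (3757 and 2595 on each), of Rfx5 with Zfp687 (3125 and 2237) and of Trove2, an RNA-binding protein (2935 and 2085).

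Matches between the deep pairs were also counted at allowed distances around each fragment. Of 11094 listings in both deep Reactivated libraries, 15.3% had the same fragment in the deep Late pair, 20.6% the same or an adjacent fragment, 29.6% a fragment within 10 kb, 56.0% within 100 kb and 76.8% within 1 Mb of the same promoter's listed fragments. Of 7478 listings in both deep Late libraries, 22.7% had the same fragment in the deep Reactivated pair, 29.6% the same or an adjacent one, 40.4% within 10 kb, 68.7% within 100 kb and 88.0% within 1 Mb. The Late pair of replicates 1 and 2 was matched less in either map: of its 1688 listings, 15.0% had the same fragment in the deep Reactivated pair and 10.8% in the deep Late pair. Listings of other stages were matched in the deep Reactivated pair at like or higher shares, with the same fragment for 25.4% and a fragment within 10 kb for 41.1% of the listings of Early replicates 3 and 4, and for 29.7% and 44.9% of those of Basal replicates 1 and 2. The larger map offers more fragments to match, and that part of the shares was not tested.

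**Figure D4:**
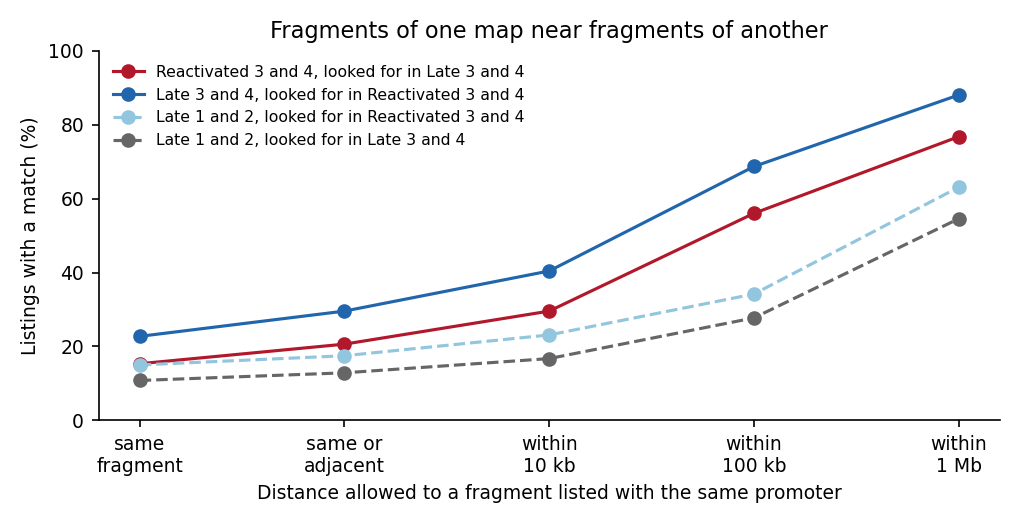
Share of listings of a library pair that have a fragment listed with the same promoter in another pair, at 5 allowed distances. The deep Reactivated listings found in the deep Late pair run from 15.3% at the same fragment to 76.8% within 1 Mb, the deep Late listings found in the deep Reactivated pair from 22.7% to 88.0%, and the listings of Late 1 and 2 from 10.8% to 54.6% in their own group's deep pair.

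Direct changes between neighbouring fragments were counted as a fragment in both deep Reactivated libraries and no Late library that lay next to one in both deep Late libraries and no Reactivated library. Counted once for each promoter, there were 347 such pairs over 303 promoters, out of 8405 Reactivated and 5582 Late listings of these kinds. In 22 pairs all 4 scaled scores were above 1000. A pair of fragments listed with several promoters was counted for each, as among the 22 for Lrrc2, Als2cl and Rtp3. These pairs were looked for after the scores had been seen. The same arrangement was not counted between library pairs of a single group, so the count is not particular to Reactivated against Late. It occurred within Late for Nfil3. There chr13:52755143-52756095 was scored 41 and 51 in Late 1 and 2 alone, and the adjoining chr13:52756098-52757805 was scored 1136 and 838 in Late 3 and 4 alone. For Kcna1, a Kv1 potassium channel subunit, chr6:126649752-126652019 was scored 3524 and 4538 in Reactivated, and its neighbour chr6:126652022-126652527 was scored 1103 and 787 in Late. For Rbfox2, the Reactivated fragment chr15:76970374-76972608 was scored 2818 and 3655 and the adjoining Late fragment chr15:76963894-76970371 was scored 997 and 705. Ntrk2, the receptor of BDNF, had 1764 and 2049 in Reactivated on chr13:58920716-58922948 and 789 and 508 in Late on the fragment before it. Ets2, a transcription factor, and Syne1, a nuclear envelope protein, showed the same arrangement.

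Some scores occurred on 2 fragments of a chromosome at once: the same score in each deep library, on fragments listed with different promoters. Counting identical scores of at least 50 on fragments within 1 Mb, 92 such pairs of promoters were found in Reactivated and 48 in Late, of which 47 in Reactivated and 33 in Late had no score on either fragment in the other group. A further 9 pairs in Reactivated and 9 in Late lay farther apart, 5 in Reactivated and 6 in Late by more than 20 Mb. Where gene order was known, at most 5 protein-coding genes lay between the promoters in 63 of 87 Reactivated and 39 of 47 Late pairs within 1 Mb. This count took a single promoter for each fragment, the first by name. Some fragments were also listed with other promoters, so a larger count need not mean that no near promoters were paired. Between Brd3 and Csnk2a1, for example, 1158 genes were counted, but the Csnk2a1 fragment was also listed with Vav2. The median gap between the fragments was 47760 bp in Reactivated and 78667 bp in Late. The count was made after the scores had been seen, and whether both ends carry baits was not tested, since bait positions are not in the table.

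Magel2 and Ndn, imprinted neighbours of the Prader-Willi region, formed such a pair in Reactivated, with 571 and 513 in replicates 3 and 4 on chr7:69492383-69495712 and chr7:69519327-69526233 and 0 in every Late library. Homer1, a postsynaptic scaffold gene with an activity-induced short form, and Papd4 shared 652 and 525 in Reactivated, with 0 in Late. Rab1b and Cnih2, an AMPA receptor auxiliary subunit, shared 4332 and 4160 in Reactivated, with 0 in Late. The Late side held Map3k12 with Calcoco1 at 3757 and 2595, Mapk9 with Cnot6 at 877 and 697, and Dlgap2, a postsynaptic density protein, with Upf3a at 954 and 698, each at 0 in Reactivated. Other such pairs were present in both groups. Samd14 and Ppp1r9b, the spine scaffold spinophilin, shared 1492 and 1789 in Reactivated and 644 and 461 in Late, and the oligodendrocyte genes Olig1 and Olig2 shared 901 and 1018 in Reactivated and 635 and 533 in Late.

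Counting fragments scored 5 or more in both libraries of a deep pair, here called deep contacts, promoters averaged 3.07 in Reactivated and 2.48 in Late over those with any. Of 4429 promoters, 2325 (52.5%) had more deep contacts in Reactivated and 920 (20.8%) had fewer. Deep contacts were found for 3468 promoters in Reactivated and 2881 in Late, and of the 2497 with both, 1354 (54.2%) shared none. In sum there were 10637 deep contacts in Reactivated and 7134 in Late, a ratio of 1.49, with 1573 in common. The deep Reactivated libraries also listed more fragments in all, 10035 and 10514 against 7165 and 7224 in the deep Late libraries, and the part of this in the counts was not tested.

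**Figure D5:**
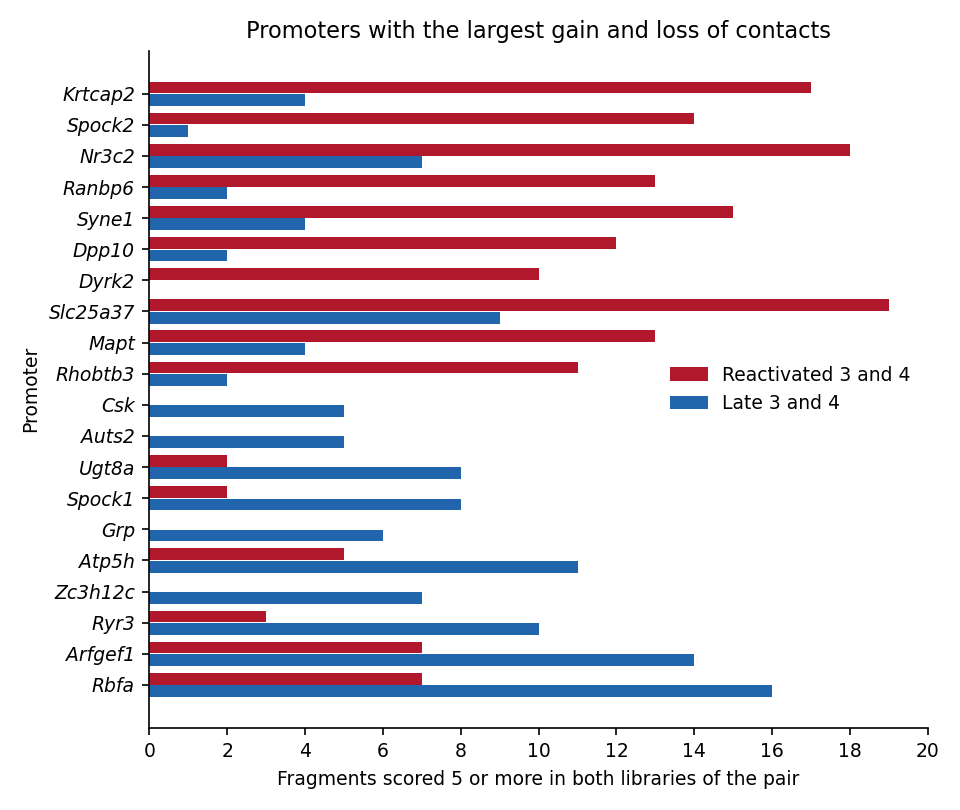
Deep contacts (fragments scored 5 or more in both libraries of a pair) in Reactivated 3 and 4 (red) and Late 3 and 4 (blue) for 20 promoters, 10 at either end of the difference. Krtcap2 has 17 in Reactivated against 4 in Late, and Rbfa has 7 against 16.

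The largest gains were in Krtcap2, a subunit of the oligosaccharyltransferase, with 17 deep contacts in Reactivated and 4 in Late, and in Spock2 with 14 in Reactivated and 1 in Late. Nr3c2, the mineralocorticoid receptor that binds corticosterone in hippocampal neurons, had 18 in Reactivated and 7 in Late, with 1 in common. Mapt, which encodes tau, had 13 in Reactivated and 4 in Late, and Dyrk2, a protein kinase, had 10 in Reactivated and 0 in Late. Promoters with fewer were Rbfa (7 in Reactivated against 16 in Late), Arfgef1, an activator of ARF GTPases (7 in Reactivated against 14 in Late), Ryr3, an intracellular calcium release channel (3 in Reactivated against 10 in Late), and Grp, gastrin-releasing peptide (0 in Reactivated against 6 in Late). Slc25a37, a mitochondrial iron carrier, had the most contacts in common, 7 of 19 in Reactivated and 9 in Late. With 6 in common followed the transcription factor Rfx3 (15 in Reactivated and 18 in Late), Tnfrsf11a, the receptor RANK (11 in Reactivated and 9 in Late), and Tnks1bp1 (13 in Reactivated and 6 in Late).

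The distance of listings in both libraries of a deep pair was measured from the median position of the same promoter's fragments in the Basal and Early libraries, because the baits are not in the table. It had a median of 105082 bp for the deep Reactivated pair and 95788 bp for the deep Late pair, and 90.3% of the Reactivated and 92.8% of the Late listings lay within 1 Mb. Listings in all 4 deep libraries lay nearer to that position, at a median of 54509 bp. Of listings in all 4, 67.1% were also listed in Basal or Early. The share was 35.9% in Reactivated alone and 46.3% in Late alone. Such fragments help to set the position, so the smaller median does not show a shorter distance to the promoter. Distances were at hand for 9181 of 11094 deep Reactivated listings, 6445 of 7478 deep Late listings and 1513 of 1699 in all 4.

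The gene lists below were chosen with earlier results of these data known, and 0 of their promoters passed the limma test on mean score, whose background is 0.0677% of all promoters. Over all promoters, mean scores were higher in Reactivated for 58.5% and lower for 38.1%, without a test, and the median difference was 0.18 on the asinh scale. Counts of deep contacts are read against the ratio of 1.49 and the shares of 52.5% with more and 20.8% with fewer over all promoters.

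Of 25 measured immediate early and activity-regulated promoters, 15 were higher and 10 lower in mean score (median difference 0.13), with 69 deep contacts in Reactivated and 55 in Late. More deep contacts were found in 12 and fewer in 9. Sik1, a kinase induced by cAMP, had 0, 0, 5 and 5 called interactions in Reactivated and 0, 0, 1 and 0 in Late. Ptgs2, the inducible cyclooxygenase, had 0, 0, 3 and 2 in Reactivated and 0 in every Late library. In both genes Reactivated replicates 1 and 2 were at 0, and replicates 3 and 4 lay above every Late library. At the other end of the list stood Nfil3 and Arc, given above. Npas4, a neuron-specific activity-dependent transcription factor, had 3 deep contacts in Reactivated and 2 in Late, with 0 in common. Bdnf, the neurotrophin, had 2 in Reactivated and 4 in Late, with 1 in common. Homer1 had 9 in Reactivated and 6 in Late, with 3 in common.

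Of 25 promoters of glutamate receptors and their auxiliary subunits, 16 were higher and 8 lower (median difference 0.11), with 76 deep contacts in Reactivated and 64 in Late. Grm5, a group I metabotropic receptor, had mean asinh scores of 0, 0, 6.78 and 6.49 in Reactivated and 0 in every Late library (difference 3.32, limma adjusted p 0.278), from a single listed fragment. Cacng8, an AMPA receptor auxiliary subunit, had 0, 0, 4.24 and 5.24 in Reactivated and 0 in Late (difference 2.37, limma adjusted p 0.292). Grid1, a delta-type receptor, had 0 called interactions in Reactivated and 0, 0, 1 and 1 in Late. Grm5, Cacng8 and Grid1 were scored in replicates 3 and 4 of one group alone. Grin1, the obligatory NMDA receptor subunit, had 0, 0, 5 and 5 called interactions in Reactivated and 1, 0, 1 and 1 in Late. Grin3a, an NMDA receptor subunit that lowers calcium entry, had 0, 0, 7 and 7 in Reactivated and 3, 5, 1 and 1 in Late. Gria2, which sets the calcium permeability of AMPA receptors, had 5 deep contacts in Reactivated and 2 in Late, with 2 in common.

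For 11 postsynaptic scaffold and spine promoters, 5 were higher and 6 lower (median difference -0.05), with 33 deep contacts in Reactivated and 25 in Late. Homer3 had 0, 0, 6 and 8 called interactions in Reactivated and 0, 0, 1 and 1 in Late. The actin-binding Cttn had 0, 1, 5 and 5 in Reactivated and 1, 0, 1 and 1 in Late. Dbn1, which encodes drebrin of dendritic spines, had 0, 0, 0 and 1 in Reactivated and 0, 0, 2 and 2 in Late, and Ppp1r9b had 0, 0, 1 and 1 in Reactivated and 2, 0, 2 and 2 in Late. The groups overlapped in all 4 genes.

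For 15 presynaptic vesicle release promoters, 8 were higher and 7 lower (median difference 0.000185), with 26 deep contacts in Reactivated and 19 in Late. Erc2, an active zone scaffold, had mean asinh scores of 0, 0, 7.2 and 7.54 in Reactivated and 0 in every Late library, and Cplx2, a complexin that clamps the release machinery, had 0, 0, 2.64 and 3.69 in Reactivated and 0 in Late. Syt2, a calcium sensor of fast release, had 0 in every Reactivated library and 0, 0, 5.10 and 4.66 in Late. Rims1, which organises the active zone, had 0 in every Reactivated library and 1.54, 0, 1.37 and 1.36 in Late. The limma adjusted p was 0.278 for Erc2, Cplx2 and Syt2 and 0.280 for Rims1.

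Of 21 promoters of cAMP, calcium and MAP kinase signalling, 11 were higher and 10 lower (median difference 0.14), with 76 deep contacts in Reactivated and 56 in Late, and 12 had more and 4 fewer. Creb1, the transcription factor through which cAMP and calcium act on memory genes, had 0, 0, 5 and 6 called interactions in Reactivated and 1, 2, 1 and 0 in Late. Ntrk2 had 0, 0, 6 and 5 in Reactivated and 0, 0, 2 and 2 in Late. Ppp1r1b, the dopamine-regulated phosphatase inhibitor DARPP-32, had 0 in every Reactivated library and 0, 2, 3 and 3 in Late. Phlpp1, a phosphatase of Akt, had 13 deep contacts in Reactivated and 15 in Late, with 5 in common.

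Of 19 GABA receptor and interneuron promoters, 11 were higher and 8 lower (median difference 0.11), with 47 deep contacts in Reactivated and 37 in Late. Cck, the neuropeptide cholecystokinin, had mean asinh scores of 0, 0, 3.10 and 3.17 in Reactivated and 0 in every Late library, and Gabrd, the GABA-A receptor delta subunit, had 0, 0, 3.78 and 4.00 in Reactivated and 0, 0, 0.81 and 0.83 in Late. Gabrg3 had 0 in every Reactivated library and 0, 0, 4.83 and 4.61 in Late, and Gabrb2 had 0 in Reactivated and 0, 0.48, 1.95 and 2.00 in Late (limma adjusted p 0.292 to 0.510 over these 4). Sst, somatostatin, had 6 deep contacts in Reactivated and 1 in Late.

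Of 22 voltage-gated ion channel promoters, 13 were higher and 9 lower (median difference 0.10), with 67 deep contacts in Reactivated and 63 in Late. Cacnb3, a calcium channel beta subunit, had 0, 0, 2 and 2 called interactions in Reactivated and 0 in every Late library, and Scn2b, a sodium channel beta subunit, had 0, 0, 1 and 2 in Reactivated and 0, 0, 0 and 1 in Late. Cacna1h, a T-type calcium channel, had 0, 0, 1 and 0 in Reactivated and 0, 0, 1 and 1 in Late. Kcnq5, an M-current channel, had 10 deep contacts in Reactivated and 11 in Late, with 3 in common.

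For chromatin modifiers, 18 of 26 promoters were higher and 8 lower (median difference 0.60), with 67 deep contacts in Reactivated and 50 in Late. Setd1b, a histone H3K4 methyltransferase, had mean asinh scores of 0, 0, 3.99 and 3.83 in Reactivated and 0 in every Late library, and Hmgn1, a nucleosome-binding protein, had 0, 0, 4.07 and 4.16 in Reactivated and 0, 0.65, 0.69 and 0.52 in Late. Kdm3a, a histone H3K9 demethylase, had 0, 0, 1.95 and 2.00 in Reactivated and 1.96, 2.96, 2.03 and 1.98 in Late. Arid2, a remodelling complex subunit, had 0, 0, 0.55 and 0.57 in Reactivated and 0, 0, 2.09 and 1.96 in Late. For Kdm3a the deep libraries of both groups ran from 1.95 to 2.03, and Reactivated replicates 1 and 2 were at 0.

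Only 4 architectural and cohesin promoters were measured, 2 higher and 2 lower (median difference 0.033), with 11 deep contacts in Reactivated and 9 in Late and 0 in common. Nipbl, which loads cohesin onto DNA, had 0, 0, 5 and 5 called interactions in Reactivated and 0 in every Late library. Esco1, which acetylates cohesin, had 0, 0, 3 and 3 in Reactivated and 3, 1, 7 and 7 in Late. Lmna, the lamin A gene, had 0, 0, 2 and 1 in Reactivated and 0, 0, 1 and 1 in Late, and Yy1, a transcription factor found at promoter and enhancer contacts, had 0, 0, 2 and 2 in Reactivated and 1, 1, 2 and 1 in Late.

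Of 21 translation and mTOR promoters, 10 were higher, 9 lower and 2 equal (median difference 0), with 43 deep contacts in Reactivated and 43 in Late. Eif2ak2, the kinase PKR, had mean asinh scores of 0, 0, 8.60 and 8.55 in Reactivated and 0, 0, 0 and 1.44 in Late. Mtor had 0, 0, 6 and 6 called interactions in Reactivated and 0, 0, 3 and 3 in Late. Cpeb2, which binds mRNA, had 0 in every Reactivated library and 0, 0, 2 and 2 in Late, and Rps6kb1, the S6 kinase, had 0 in every Reactivated library and 3, 1, 2 and 1 in Late. Rps6kb1 was scored in all 4 Late libraries and in no Reactivated library (limma adjusted p 0.278 on mean score).

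Markers of cell types were counted in the same way, although contacts are not expression and check no cell type. Of 16 neuronal marker promoters, 9 were higher, 6 lower and 1 equal (median difference 0.16), with 36 deep contacts in Reactivated and 21 in Late. Neurod2, a neuronal transcription factor, had 0, 0, 2 and 3 called interactions in Reactivated and 0 in every Late library. Slc17a7, the vesicular glutamate transporter of excitatory neurons, had 0, 0, 1 and 1 in Reactivated and 0, 0, 3 and 3 in Late, and Nefm, a neurofilament, had 0, 0, 1 and 1 in Reactivated and 0, 0, 4 and 4 in Late. Of 21 promoters of astrocyte, oligodendrocyte, microglia and vascular markers, 12 were higher and 9 lower (median difference 0.33), with 38 deep contacts in Reactivated and 28 in Late. The astrocyte filament gene Gfap had 0, 0, 1 and 1 called interactions in Reactivated and 0 in Late, and Cx3cr1, a microglial receptor, had 0, 0, 2 and 2 in Reactivated and 0 in Late. Aqp4, the astrocyte water channel, had 0 in Reactivated and 0, 0, 1 and 1 in Late, and Aldoc had 0, 0, 1 and 1 in Reactivated and 1 in every Late library. The nuclei were sorted for NeuN, and the part of other cells in these contacts was not tested.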

How the data were processed

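The deposited table, one for the whole series, gives an interaction score per promoter and HindIII fragment for each library on mm9, per the file headers and the submitters' processing notes. The authors' score is a whole number, and a dot, entered here as 0, stands for no score. For the scoring program, the read aligner and the filters, names were not given in the sources used here. Nuclei of 10 to 12 mice were pooled and libraries had 17 PCR cycles, per the labels' protocols. Groups came from sample titles. Libraries were not treated as paired by replicate number.

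Scores were transformed with asinh. Listings, promoter means and called interactions (a score of 5 or more) were fitted with limma 3.58.1 (R 4.3.3, statmod 1.5.0; variance trend, robust) over all 15 libraries, with Benjamini-Hochberg adjustment and a threshold of 0.05, after the code was tested on simulated data. Values per library were compared by exact permutation (scipy 1.17.1, Python 3.11.15). Replicates 3 and 4 were scaled to equal totals and described, and a limma fit of them alone served only as an alternative. Libraries of a group sharing at least 40% of the smaller one's fragments formed a pair. Alternatives covered the scale, trend, filters, call threshold, library totals, pairs and left-out libraries.

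The genes named by rule were the 6 fragments with the largest difference each way, the 6 strongest of each deep pair unlisted in the other group, the 5 with the largest ratio each way in all 4 deep libraries, the 5 promoters each way by called interactions, up to 2 promoters each way per list, fragments in Reactivated 1 and in 3 or 4, and Arc. Other named genes were chosen after their values were seen. The comparison, lists and rules were chosen with earlier results of these data known. Promoter windows and names came from RefSeq (GRCm38.p6), and 4280 of 4429 names matched a symbol. A fragment on chromosome 18 and bait positions were not used here, and some genes that the rule names are not reported here.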

Additional observations from a re-analysis of the deposited data

Results flagged for a closer look

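In groups of 4 libraries, a value was taken as apart when its gap to the nearest other value was a larger part of the group's range than Dixon's critical value allows. Of 176 groups examined, 21 held such a value. Chance flags about 1 in 20 groups of continuous values, so single entries carry little weight. A group in which all values but 1 are equal is always flagged, and most entries below are of this kind. The 21 can therefore not be read against that rate.

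Reactivated replicate 2 stood apart most often. It scored the Cldn12 fragment at 1000 and the Bax fragment at 201, with the other Reactivated libraries at 0 and at 0 to 11. It held 42 called interactions of Crebzf and a mean asinh score of 1.89 for that promoter. Cldn12 had 1 called interaction and a mean score of 0.507 in replicate 2 alone. In other Reactivated libraries, Pi15 had a mean score of 0.361 in replicate 4, Dbn1 had 1 called interaction in replicate 4, and Cacna1h had 1 in replicate 3.

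Among Late libraries, Otof had a mean score of 0.722 in replicate 4 alone. Called interactions stood apart for Arc in replicate 2, with 3, and for Yy1 in replicate 3, with 2. Scn2b had 1 in replicate 4 and Sik1 had 1 in replicate 3, each with 0 elsewhere in Late. Krtcap2 had 2 in replicate 1, below the others. Values of 0 stood apart for Cttn, Ppp1r9b and Grin1 in replicate 2, for Hmgn1 in replicate 1 and for Cradd in replicate 3.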

How the results depend on the processing

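The number of calls depended on which libraries entered the fit. For single listings, limma called 0, and 59 without a variance trend, 8971 after filtering to listings scored in at least 2 of the 8 libraries, 9121 without Reactivated replicates 1 and 2, 15816 from replicates 3 and 4 alone, and 0 to 4929 with 1 library left out. For promoter mean scores it called 3, and 0 with the 8 libraries alone or with pairs as means, 5 without a trend, 1 on log2(score + 1), 12 with totals equalised, 11 on fragments of a single promoter, 1940 without Reactivated replicates 1 and 2, 2909 from replicates 3 and 4 alone, and 0 to 155 with 1 library left out. For called interactions it called 0, and 6 without a trend, 15 at a call score of 2, 1238 without Reactivated replicates 1 and 2, 2138 from replicates 3 and 4 alone, and 0 to 193 with 1 library left out. The fits of replicates 3 and 4 alone, the per-library values with 1 library left out, and, for called interactions, the fits without a trend and with the 8 libraries alone (0 calls) were chosen after seeing the data. Causes were not tested.

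Deviations of same-numbered libraries had correlations of -0.0181 to -0.00955 for listings and 0.0524 to 0.0667 for promoters. The highest correlation with another number was 0.0112 to 0.0250 for listings and 0.0412 to 0.0829 for promoters. For promoters the same number had the higher value in replicates 2 and 4 and the lower in replicates 1 and 3. These values do not settle a pairing, and the main fits used none. With the replicate block, limma called 0 listings, 5 promoters on mean score and 0 on called interactions.

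In the deep pairs, 310 listings were past 4-fold higher and 471 lower in Reactivated. Unscaled scores gave 693 higher and 206 lower, a 2-fold limit 482 higher and 688 lower, and an 8-fold limit 171 higher and 289 lower. One library of each group at a time gave 408 to 501 higher and 531 to 574 lower. Shared fragments were 13.6% of Reactivated and 19.7% of Late at a score of 5, and 13.2% of Reactivated and 19.0% of Late at 10.

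With 1 library left out, the difference in fragments per library ran from -1693 to 1801 and in calls per promoter from -0.291 to 0.407. The Trim28 fragment turned from -0.25 to 0.40 with equalised totals and 0.44 without Reactivated replicates 1 and 2 (-0.51 to 0.17 with 1 library left out), and its log2 ratio between deep pairs was -1.66 scaled and 0.22 unscaled. The Nfxl1 fragment turned to -2.98 in replicates 3 and 4 alone. The difference for Crebzf turned to -2.25 at a call score of 10, -1.75 without Reactivated replicates 1 and 2 and -1 in replicates 3 and 4 alone (-2.92 to 9.42 with 1 library left out), and for Cacna2d1 to 2.00 without Reactivated replicates 1 and 2. Read depth is unknown, so no counting error could be given.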
